A study of Mus musculus with 10 samples.

Results

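The genes described are those of antigen processing and presentation and of the proteasome. They were chosen by name: every mouse protein-coding gene whose symbol starts with Psma, Psmb, Psmc, Psmd, Psme or H2-, plus B2m, Tap1, Tap2, Tapbp, Nlrc5, Ciita, Erap1, Calr and Canx. This gave 93 genes, of which 29 belong to MHC class I (B2m included), 9 to class II, 8 to peptide loading and its transactivators, 44 to the proteasome and 3 to none of these (H2-Ke6, Psmc3ip and Psme3ip1). On the main chromosome sequences of the reference lay 90 of the 93, among 21774 protein-coding genes. H2-Q8, H2-Q9 and H2-T18 are placed on other sequences in the reference table and were not assigned, which left 26 class I genes.

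The study mapped chromatin bound by p65 (RelA), an NF-kB subunit, with ChIP-seq (sequencing of the DNA precipitated with an antibody, here against p65). The cells were regulatory (Treg) and conventional (Tconv) T cells from spleens and lymph nodes of C57BL/6 mice. Stimulated cells spent 3 hours on plates carrying anti-CD3, with anti-CD28 in solution and IL-2 at 2 ng/ml for Tconv or 10 ng/ml for Treg. How the unstimulated cells were kept was not given in the sources used here. Each of the 4 groups had 2 immunoprecipitated libraries, deposited as 1 pooled peak list, and 2 input libraries held chromatin mixed from both cell types and both states. The files analysed here give no list per library. The spread between replicates therefore cannot be given, no test between groups was possible, and the depth of the libraries is unknown.

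MHC class I molecules, made of a heavy chain and beta-2-microglobulin, show peptides from inside the cell to CD8 T cells. The proteasome cuts proteins into such peptides, the TAP transporter carries them into the endoplasmic reticulum, and tapasin helps to load them. In interferon-treated and immune cells the immunoproteasome subunits replace their constitutive counterparts. Class II molecules show peptides from endocytosed proteins to CD4 T cells and are made mainly by B cells, dendritic cells and macrophages. NLRC5 and CIITA are the transactivators of the class I and class II genes, and NF-kB is known to bind class I promoters at a site called enhancer A.

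The p65 summits lay on or near an NF-kB site at class I starts and a different motif at several proteasome starts. Sequences of 7 promoters are shown because they carry this contrast. All are from RefSeq's promoter table for GRCm38.p6 (the coordinates of mm10), written 5′ to 3′ on the strand of the gene. A promoter sequence was matched for 77 of the 90 genes, the others being Ciita, H2-Ab1, H2-Q1, H2-T24, Nlrc5, Psma8, Psmb1, Psmb2, Psmb7, Psmc3, Psmd3, Psmd7 and Tap2. In the first group the capitals mark the match to the NF-kB consensus. The 4 class I genes here include both classical heavy chains, H2-K1 and H2-D1. Their windows are chr2:122147531-122147600 (plus strand) for B2m, chr17:34000418-34000488 (minus strand) for H2-K1, chr17:35262893-35262963 (plus strand) for H2-D1 and chr17:35379413-35379483 (plus strand) for H2-Q4.
B2m: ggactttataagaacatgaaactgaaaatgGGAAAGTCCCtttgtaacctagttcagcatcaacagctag
H2-K1: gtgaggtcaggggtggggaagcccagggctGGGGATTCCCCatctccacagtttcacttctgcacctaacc
H2-D1: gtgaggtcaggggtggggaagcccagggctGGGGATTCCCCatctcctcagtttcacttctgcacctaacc
H2-Q4: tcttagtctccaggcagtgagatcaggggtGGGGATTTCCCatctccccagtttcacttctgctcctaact

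In the second group the capitals mark a match to GCGC, 2 free bases and GCGC. This is a loose form of the known binding motif of nuclear respiratory factor 1 (called the NRF1-type motif below). It was chosen after the data were seen, having been noticed in the Psma2 promoter. Of 13 motifs tried, it had the largest difference in percentage points between promoters with and without a summit. The windows are chr13:14613085-14613154 for Psma2, chr9:54950768-54950837 for Psma4 and chr17:34122585-34122654 for H2-DMa, all on the plus strand.
Psma2: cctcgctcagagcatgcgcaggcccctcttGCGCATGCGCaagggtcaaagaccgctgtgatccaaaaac
Psma4: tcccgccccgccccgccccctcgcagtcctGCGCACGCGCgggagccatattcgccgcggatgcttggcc
H2-DMa: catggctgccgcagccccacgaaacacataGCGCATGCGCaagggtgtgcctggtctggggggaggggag

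An entry is 1 peak summit of a list. It was given to every gene it lay inside or otherwise to the nearest gene within 50 kb. Before stimulation the Tconv list held 3132 entries and the Treg list 3442, and after it 6480 and 13078. Of the 90 genes, 10 had an entry in unstimulated Tconv, or 11.1%, against 12.9% of all protein-coding genes. In unstimulated Treg 17 had one, or 18.9%, against 13.9% of all genes. In stimulated Tconv 21 had one, or 23.3%, against 17.0%. In stimulated Treg 36 had one, or 40.0%, against 25.9%. The share in unstimulated Tconv was thus near that of all genes, and the shares in the other 3 lists lay above it. Any list held an entry for 37 of the 90 genes (41.1%, against 29.6% of all genes), and 53 had none.

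The count in stimulated Treg depended on the length of its list. When each list was cut to its 3132 strongest entries by −log10 p, 8 of the 90 genes kept an entry in stimulated Treg (8.89%), near the 7.41% of all genes. Stimulated Tconv kept 14 (15.6%, against 8.96%), and the unstimulated lists kept 15 in Treg (16.7%, against 12.8%) and 10 in Tconv (11.1%, against 12.9%). At a common −log10 p of at least 38.1, the lowest value in the stimulated Tconv list, the counts were 28, 21, 9 and 5 in the same order, against 20.1%, 17.0%, 6.72% and 5.88% of all genes. As shares of the 90 genes these were 31.1%, 23.3%, 10.0% and 5.56%.

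**Figure D1:**
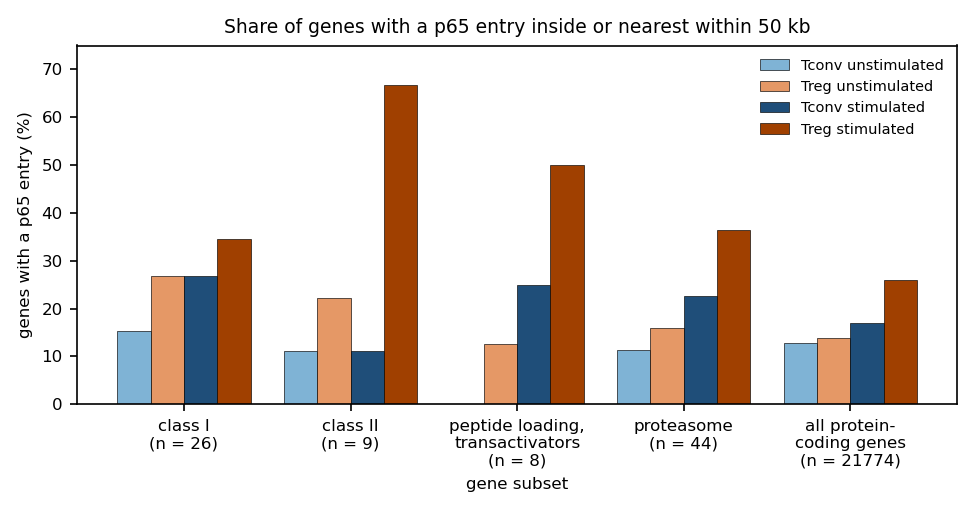
Share of genes (%, y axis) with a p65 entry inside them or nearest within 50 kb, by gene subset (x axis, n genes each), 1 bar per peak list, with no error bars because each list is 1 pooled set. In stimulated Treg the bars stand at 34.6% of class I, 66.7% of class II, 4 of 8 peptide loading and transactivator genes and 36.4% of proteasome genes, against 25.9% of all protein-coding genes.

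Among the 26 class I genes, 4 had an entry in the Tconv list and 7 in the Treg list before stimulation, and 7 and 9 after it. These were 15.4%, 26.9%, 26.9% and 34.6%, against 12.9%, 13.9%, 17.0% and 25.9% of all protein-coding genes. The 9 genes were H2-K1, H2-D1, H2-Q1, H2-Q4, H2-Q6, H2-Q7, H2-Q10, H2-T24 and H2-M3. The 17 without an entry were B2m, H2-Q2, H2-T3, H2-T22, H2-T23, H2-T-ps, H2-M1, H2-M2, H2-M5, H2-M9, H2-M11 and the 6 H2-M10 genes. Fold enrichment below is the authors' ratio of a summit over its background and is set side by side for the 4 lists, always with the Tconv and Treg values before stimulation first and those after it next. For H2-D1, a classical heavy chain, the strongest entries had a fold of 7.75, 11.95, 27.78 and 26.67. H2-K1, the other classical heavy chain, had 8.11, 11.58, 14.42 and 13.35. Both genes were in every list, and both had a summit within 300 bases of their start in each one. H2-Q4, a nonclassical heavy chain, had no entry in unstimulated Tconv and 11.12, 15.39 and 13.17 in the other 3 lists.

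The remaining class I genes of the Q, T and M regions were less even across the lists. H2-T24, a nonclassical gene, was listed after stimulation in Tconv (16.27) and Treg (24.32), in both cases 1.40 kb to 1.38 kb outside the gene. H2-M3, which presents formylated peptides, was listed in Treg alone, with 5.64 unstimulated at 714 bp after its start. Stimulated Treg held 8.56 at 725 bp after the H2-M3 start and 11.36 at 151 bp before it. At its start H2-Q7 had 4.23 in unstimulated Treg and 8.72 and 10.20 after stimulation, and a separate stimulated region 1.37 kb to 1.38 kb outside the gene had 11.07 and 10.20. H2-Q6 was in all 4 lists, with 11.82, 10.62, 13.89 and 14.49, but those summits lay 9.05 kb to 9.06 kb before its start. H2-Q10 had summits 9.09 kb to 9.10 kb before its start in 3 lists, with 7.75, 7.63 and 10.21. These distant H2-Q6 and H2-Q10 entries were narrow, from 300 bp to 375 bp wide, while the H2-D1 entries at the start were 1038 bp to 2687 bp wide. The Q genes are close copies. The 250 bases before the starts of H2-Q6 and H2-Q7 were 97.6% identical over 210 aligned bases, and the other pairs among H2-K1, H2-D1, H2-Q4, H2-Q6 and H2-Q7 were 83.8% to 89.5% identical. The handling of reads that match several copies was not given in the sources used here, so the split of signal between these genes is uncertain.

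B2m, the light chain shared by all class I molecules, had no entry by the rule, because its promoter lies inside the annotated body of Patl2. All 4 lists nevertheless held a summit in the 300-base window at its start, at 130, 83, 108 and 121 bases before it. The fold was 6.65 (Tconv) and 11.88 (Treg) in the unstimulated lists, and 16.88 and 22.48 in the stimulated ones. The promoter summits of Psma2 (inside Mrpl32), Psmc2 (Dnajc2), Psmc5 (Ftsj3), Psmd10 (Atg4a) and H2-T22 (Gm6034) were likewise given to a neighbour. With other genes disregarded and summits inside a gene or within 1 kb counted, 13, 19, 19 and 36 of the 90 genes had an entry, against 13.9%, 14.7%, 16.7% and 25.8% of all genes. A peak does not say which of the genes around it p65 acts on.

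The NF-kB consensus, searched on both strands in the 250 bases before the start, was present at 9 of the 24 class I genes with a promoter sequence (37.5%). It was present at 843 of 17486 genes overall (4.82%). H2-Aa was the only one of 8 class II genes with it, Psmd12 the only one of 37 proteasome genes, and none of 5 peptide loading genes had it (counts of genes with a promoter sequence). In at least 1 list, 8 of the 24 class I genes had a summit in their 300-base window, against 19.3% of all genes. Over all 77 genes with a sequence, 11, 14, 16 and 25 had one in the 4 lists (14.3%, 18.2%, 20.8% and 32.5%), against 9.54%, 10.1%, 9.65% and 15.9% of all genes. The 8 class I genes were B2m, H2-K1, H2-D1, H2-Q4, H2-Q6, H2-Q7, H2-M3 and H2-T22, and all 8 held the consensus. Among the 16 class I genes without such a summit only H2-M2 held it. Over all genes, 6.69% of promoters with a summit and 4.37% of those without one held it.

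The distance from the site to the nearest summit differed between class I genes. At B2m it was 9, 39, 14 and 1 bp in the 4 lists, and at H2-K1 it was 28, 10, 26 and 8 bp. At H2-Q4 it was 21, 50 and 3 bp in the 3 lists that had an entry. The H2-D1 summits lay 42 and 23 bp from the site in unstimulated cells, and 80 and 100 bp from it after stimulation. In stimulated Treg the nearest summit was 20 bp from the site at H2-T22 and 30 bp at H2-M3. The only unstimulated Treg summit at H2-M3 lay 836 bp away, beside the second stimulated Treg summit of that gene. At H2-Q7 the distances were 16, 26 and 42 bp, and at H2-Q6 70 bp and 66 bp in the Treg lists. A match of letters is a description and not a measured binding site.

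**Figure D2:**
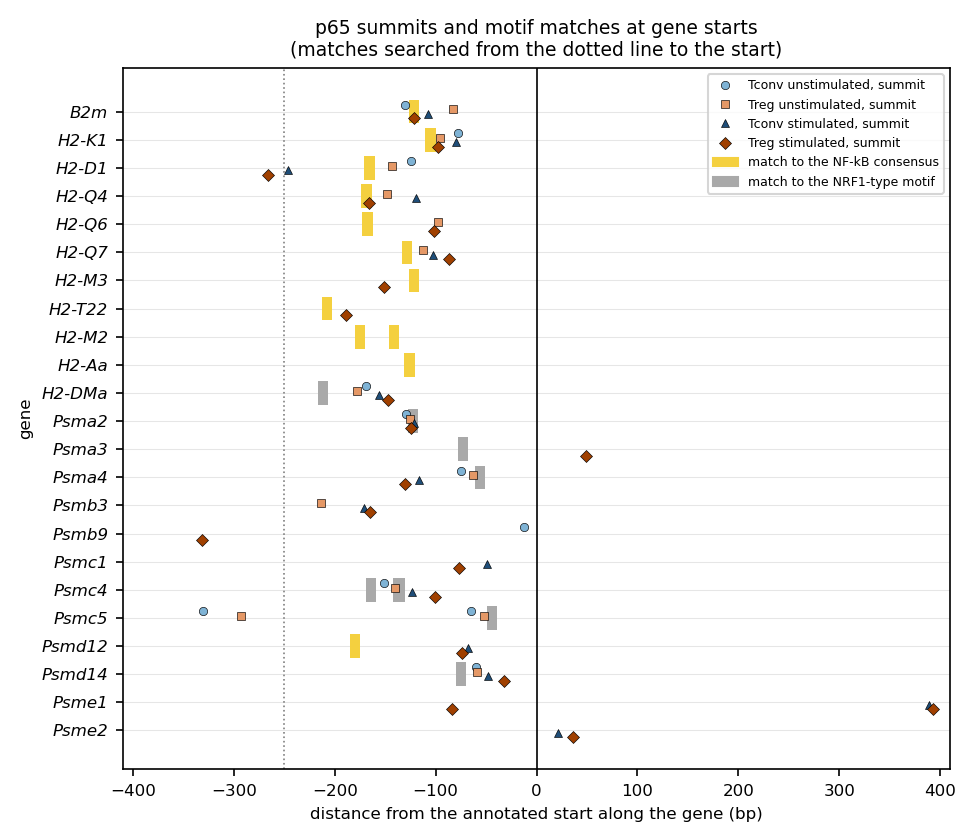
Position of p65 summits (points, 1 symbol per peak list) and of motif matches (bands) along the x axis, in bp from the annotated start of each gene (y axis), with negative values before the start and matches searched back to the dotted line at 250 bases. Summits sit on or beside the NF-kB match at B2m, H2-K1, H2-Q4 and H2-Q7, and on or beside the NRF1-type match at Psma2, Psmc4, Psmc5 and Psmd14.

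Peptide loading and transactivator genes had an entry in 0, 1, 2 and 4 of 8 cases. Tapbp encodes tapasin. It was absent from unstimulated Tconv and had a fold of 8.14, 13.76 and 17.29 in the other 3 lists, each at 118 to 120 bp after its start. Nlrc5 had no entry in either unstimulated list. Stimulated Tconv held 1 summit, 20031 bp inside the gene, at a fold of 13.94. Stimulated Treg held a summit there, 20043 bp inside, at 23.41 and 7 further summits. Of those 7, the strongest lay 17.0 kb outside the gene at 23.21, and Herpud1 was 21.9 kb from it. Another lay 425 bp outside Nlrc5 at 13.73. Tap1 and Tap2, the subunits of the peptide transporter, were given an entry in stimulated Treg alone, at 8.90 and 7.70. Unstimulated Tconv held a summit 214 bp before the Tap1 start at 5.35, which the rule gave to Psmb9. Calr, Canx, Ciita and Erap1 had no entry in any list.

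**Figure D3:**
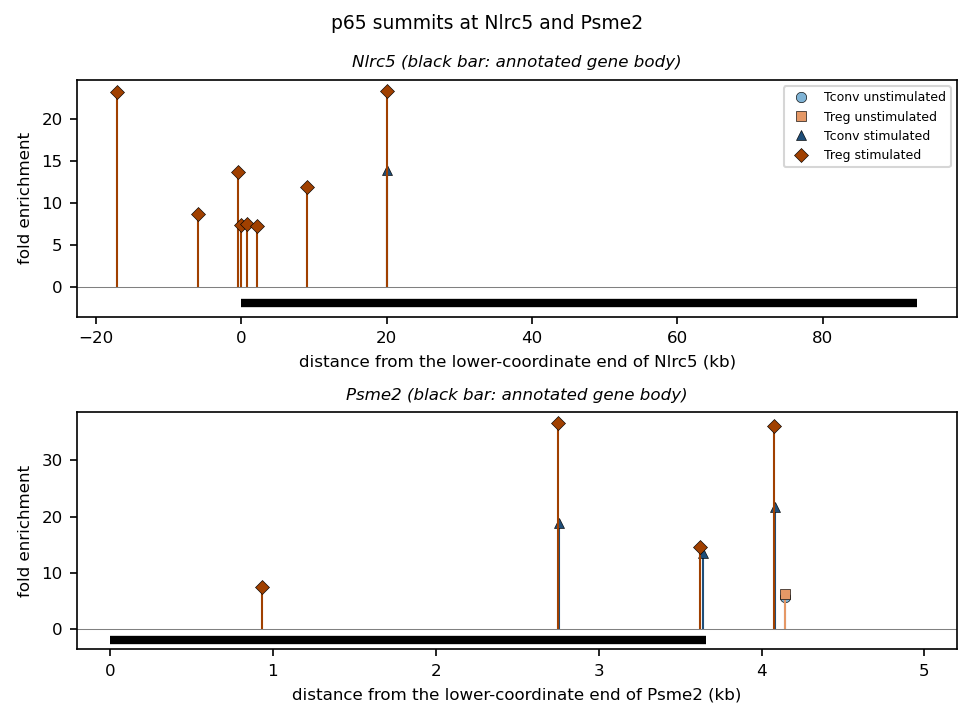
Fold enrichment (y axis) of every p65 summit around Nlrc5 and Psme2 against the distance from the lower-coordinate end of the gene (kb, x axis), 1 symbol per peak list, with summits given to the neighbour Rnf31 included beside Psme2. The rule gave Nlrc5 8 summits in stimulated Treg and 1 in stimulated Tconv. In the Psme2 panel the stimulated summits reach 36.62 in Treg (inside Psme2) and 21.75 in Tconv (beside Rnf31).

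The class II genes had an entry in 1, 2, 1 and 6 of 9 cases. These were 11.1%, 22.2%, 11.1% and 66.7%, against 12.9%, 13.9%, 17.0% and 25.9% of all genes. The gene in every list was H2-DMa, which helps load class II molecules, with a fold of 29.91, 26.72, 20.58 and 21.56 at the summit nearest its start. A further stimulated summit, 1.59 kb to 1.60 kb inside the gene, had 19.74 in Tconv and 23.70 in Treg. Its region also lies inside Brd2, a bromodomain gene, and the summit nearest to the H2-DMa start was 129 to 160 bp from an end of Brd2. The 2 genes cannot be told apart by position. H2-Eb1, a class II beta chain, was in the Treg lists at 5.48 (unstimulated, 4.11 kb inside) and 7.05 (stimulated, 971 bp before its start), which were separate regions. H2-Aa (7.90), H2-DMb1 (7.57), H2-Oa (9.81) and H2-Ob (9.71) were listed in stimulated Treg alone, at positions from 3.23 kb inside to 7.80 kb outside the gene. These folds were below the list's median of 11.2. At the common −log10 p of 38.1, 3 of the 9 class II genes kept an entry in stimulated Treg. H2-Ab1, H2-DMb2 and H2-Eb2 had no entry.

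Class II genes are expressed mainly by antigen-presenting cells, so genes of such cells were read in the same lists. Of 8 B cell genes, Cd79a alone had an entry, in 3 lists, with a fold of 6.47 to 10.86. Of 10 myeloid and dendritic cell genes, Itgam and Zbtb46 had an entry, in both stimulated lists. The strongest folds were 38.65 in Tconv and 27.82 in Treg at Itgam, and 14.42 and 20.22 at Zbtb46. Of 8 T cell genes 2, 4, 6 and 7 had one, and of 4 Treg genes 0, 2, 2 and 4. Of all protein-coding genes, 12.9%, 13.9%, 17.0% and 25.9% had one. A share of other cells in the isolated populations was not tested, since a peak list does not count cells.

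The proteasome genes had an entry in 5, 7, 10 and 16 of 44 cases (11.4%, 15.9%, 22.7% and 36.4%). Over all genes the shares were 12.9%, 13.9%, 17.0% and 25.9%, near the proteasome shares in the unstimulated lists. Among the 5 immunoproteasome genes, Psme1, Psme2 and Psmb9 had entries and Psmb8 and Psmb10 had none. Counted over any list this was 60.0%, against 29.6% of all genes. Psme2, a subunit of the interferon-inducible PA28 activator, had no entry of its own in the unstimulated lists and, after stimulation, a fold of 18.83 in Tconv and 36.62 in Treg. The −log10 p of these summits was 175.5 and 451.6. Both lay in the gene, 824 and 828 bp after its start, and the Treg value was the highest fold of any proteasome gene under the rule. The stimulated region ran on to Rnf31, where further summits had folds of 21.75 and 36.05, and the unstimulated lists held weaker summits there (5.72 and 6.31). Psme1, the partner subunit, was listed after stimulation alone, at 11.21 in Tconv and 11.19 in Treg, 389 and 393 bp after its start.

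Psmb9, the immunoproteasome subunit beta-1i, starts a short distance from Tap1 on the opposite strand. Unstimulated Tconv held a summit between them, 12 bp before the Psmb9 start, at a fold of 5.35. Stimulated Treg held an overlapping region whose summit fell 106 bp after the Tap1 start. The other Psmb9 entries were 10.6 kb and 10.7 kb outside the gene, with folds after stimulation of 8.62 in Tconv and 10.80 in Treg. They were almost as near to the class II gene H2-DMb1, at 11.2 kb and 11.1 kb. The list of unstimulated Treg held none. The 250 bases before the Psmb9 start held neither the NF-kB consensus nor the NRF1-type motif.

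Core particle genes had an entry in 1, 4, 3 and 4 of 16 cases. These were 6.25%, 25.0%, 18.8% and 25.0%, against 12.9%, 13.9%, 17.0% and 25.9% of all genes. Psma3, an alpha ring subunit, had 20.41 in Tconv and 26.17 in Treg after stimulation, 3.83 kb and 3.82 kb outside the gene. Its entry in unstimulated Treg (6.14) was a separate region, 207 bp outside the other end. Psmb3, a beta ring subunit, had 5.72 in unstimulated Treg and 13.89 and 16.96 after stimulation, at 214, 171 and 165 bp before its start. The entry that Psma6 had in those 3 lists lay 28.4 kb outside the gene, at 7.80, 10.21 and 12.68. It lay between Psma6 and Nfkbia, which was 42.5 kb away. Stimulated Treg held 4 further regions for it, the strongest at 17.63 inside the gene. Psmb2 was listed in stimulated Treg alone (9.65).

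A different order of values was seen at Psma2, Psma4 and Psmc4. Psma2, an alpha ring subunit, had no entry by the rule, but the summit at 121 to 129 bases before its start had a fold of 39.43 (Tconv) and 35.87 (Treg) in the unstimulated lists. In the stimulated lists it was 23.39 and 17.36. Psma4 had 23.03 and 18.95 in the unstimulated lists. Its region was also in the stimulated lists, at 20.24 and 17.94, where the summit fell just outside the gene and inside the overlapping AY074887. Psmc4, an ATPase of the regulatory particle, had 21.56, 20.05, 11.97 and 7.55. At these 3 genes the unstimulated lists thus held entries among their upper folds, above the medians of 8.31 (Tconv) and 8.13 (Treg) over all their entries, while Psmc4 in stimulated Treg lay below that list's median of 11.2.

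The other regulatory particle genes followed several patterns. Psmd14, the deubiquitinase of the lid, was in all 4 lists with little difference in fold, at 16.62, 16.10, 14.22 and 16.46. Psmd12 was in both stimulated lists, at 12.58 and 16.79, and held the NF-kB consensus 113 and 107 bp from those summits. Psmc1 had 10.54 and 10.86 after stimulation, at 49 and 77 bp before its start, and a separate region 3.62 kb before it at 6.31 in unstimulated Treg. Psmd3 had 5.54 in unstimulated Tconv and 9.71 in stimulated Treg. Psmc6, Psmd1, Psmd5 and Psmd9 were in stimulated Treg alone, from 7.27 to 11.19. The 3 genes Psme2b, Psme3 and Psme4 had none, and 27 of the 44 proteasome genes had no entry under the rule. Psme3ip1, placed in none of the subsets, had 18.30 and 19.47 after stimulation, at summits that also lay inside LOC115486880.

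**Figure D4:**
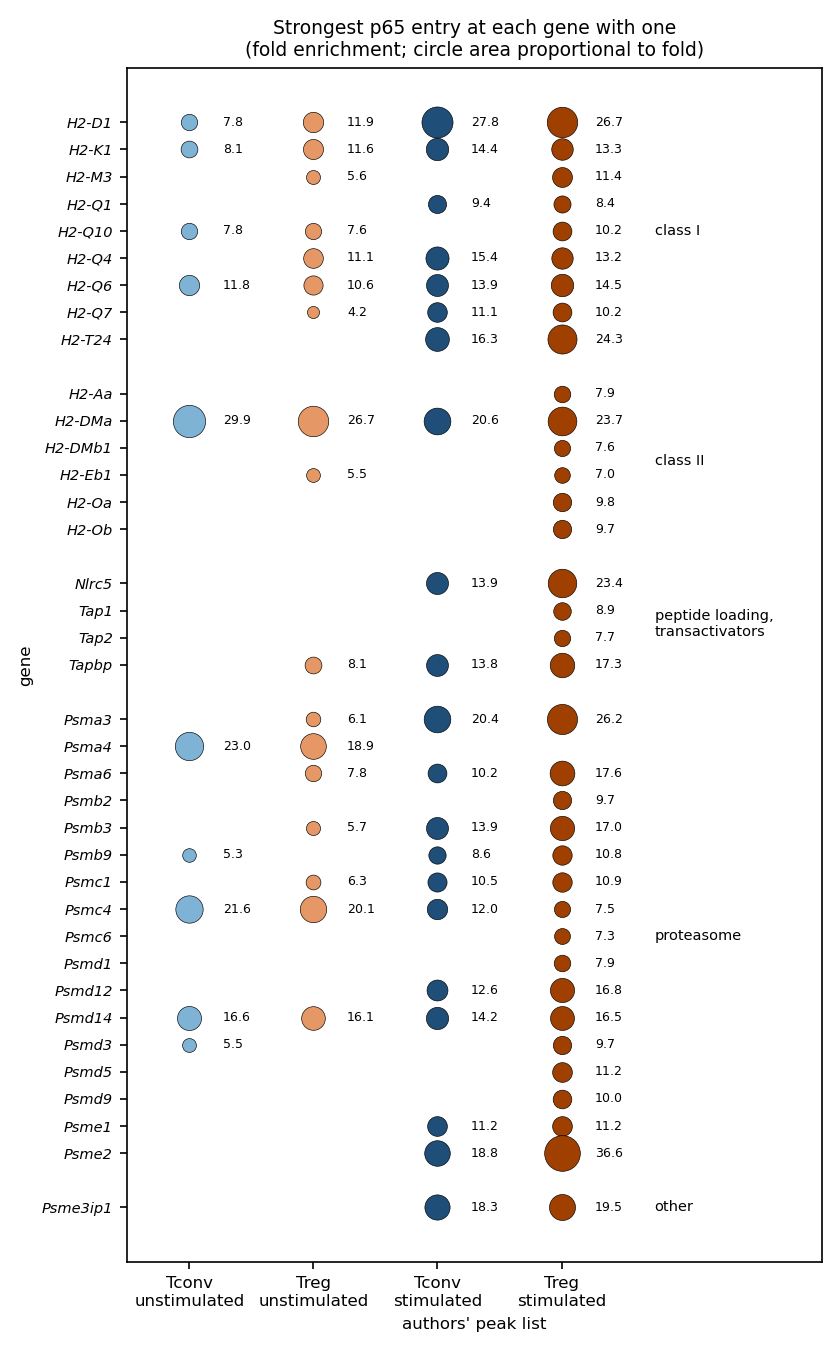
Strongest p65 entry of each gene with one (y axis) in each of the 4 peak lists (x axis), with circle area proportional to the authors' fold enrichment, printed beside each circle. H2-D1 is higher in the stimulated lists (27.78 and 26.67) than in the unstimulated ones (7.75 and 11.95), Psmc4 runs the other way, and 11 genes have a circle in stimulated Treg alone.

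Letters other than the NF-kB consensus were read at some of the proteasome starts. The NRF1-type motif was noticed in the Psma2 promoter and then searched, as 1 of 13 motifs, on both strands in the 250 bases before each start. It was present at 6 of 37 proteasome genes (16.2%), at H2-DMa, and at none of 24 class I genes, against 7.73% of all genes. The 6 were Psma2, Psma3, Psma4, Psmc4, Psmc5 and Psmd14. In unstimulated Tconv, 6 of 37 proteasome genes had a summit in the 300-base window, 5 of them with this motif, and the motif was at 1 of the 31 without a summit. The one with a summit and no motif was Psmb9, and none of the 6 held the NF-kB consensus. Over all genes 43.0% of promoters with a summit in that list held the motif, so it is not particular to the proteasome genes. In unstimulated Treg 5 of 7 with a summit held it (against 41.3% of all genes) and 1 of 30 without (against 3.97%). In stimulated Treg the numbers were 5 of 16 (31.2%, against 23.7% of all genes) and 1 of 21 (4.76%, against 4.71%), near those of all genes.

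The summits also lay near this motif. At Psma2 the nearest summit was 7, 3, 2 and 2 bp from the middle of the match, and at Psmd14 16, 17, 28 and 44 bp. At Psma4 the distances were 19, 7, 60 and 74 bp. For Psmc5, another ATPase of the regulatory particle, they were 21 and 8 bp in the unstimulated lists, and neither stimulated list had a summit there. The H2-DMa summits were 35 to 66 bp away. At Psma3 the one summit near the start, in stimulated Treg, was 123 bp away.

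Changes with stimulation were counted over regions, each made by merging overlapping entries of a list. Of 22 regions at these genes in stimulated Tconv, 15 had no counterpart in unstimulated Tconv (68.2%, 95% Wilson interval 47.3% to 83.6%), against 67.4% of all regions. Of 56 in stimulated Treg, 41 had none in unstimulated Treg (73.2%, 60.4% to 83.0%), against 77.3%. Both shares were close to those of all regions at the authors' thresholds. In Treg the share was 55.6% of 9 regions against 76.1% of all with lists of equal length, and 70.8% of 24 against 84.9% in the upper 50% of each list. By gene, 14 had an entry in stimulated and not in unstimulated Tconv (15.6%, against 8.28% of all genes), and 20 in stimulated and not in unstimulated Treg (22.2%, against 14.7%). In the other direction, 3 of 10 regions of unstimulated Tconv (against 36.3% of all) and 3 of 18 of unstimulated Treg (16.7%, against 21.6%) had no counterpart after stimulation. By gene, 3 in Tconv (3.33%, against 4.22% of all genes) and 1 in Treg (1.11%, against 2.66%) had an entry before stimulation alone. The Treg gene was Psma4, also among the 3 in Tconv. Its region had a counterpart in both stimulated lists, where the summit was given to AY074887.

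Between cell types, the share at these genes stood furthest from that of all regions before stimulation. In unstimulated Treg, 10 of 18 regions had no counterpart in unstimulated Tconv (55.6%, interval 33.7% to 75.4%), against 20.6% of all regions, although the lists were of similar length. These regions belonged to H2-Eb1, H2-M3, H2-Q4, H2-Q6, H2-Q7, Psma3, Psma6, Psmb3, Psmc1 and Tapbp. By gene, 9 had an entry in unstimulated Treg and none in unstimulated Tconv (10.0%, against 2.62% of all genes), and 2, Psmb9 and Psmd3, the reverse (2.22%, against 1.70%). Tapbp (8.14) and H2-Q4 (11.12) had folds above the list's median of 8.13, and the other 8 regions had folds below it. At the common −log10 p of 38.1, 44.4% of 9 regions had no counterpart, against 19.1% of all regions. In the upper 50% of each list it was 33.3% of 9 regions, against 17.1%.

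After stimulation 34 of 56 Treg regions had no Tconv counterpart (60.7%, interval 47.6% to 72.4%), against 49.3% of all regions. With lists of equal length this was 11.1% of 9 regions, against 30.2% of all, and in the upper 50% of each list it was 37.5% of 24, against 51.4%. None of the 22 stimulated Tconv regions lacked a Treg counterpart (upper bound 14.9%), against 4.15% of all regions. By gene, 15 had an entry after stimulation in Treg but not in Tconv (16.7%, against 9.70%), 0 the reverse (0.781% of all genes), and 21 were in both (23.3%, against 16.2%). The 11 genes found in stimulated Treg and in no other list were 12.2% of the 90, against 7.28% of all genes. Tap1 was among them, although its region overlapped the unstimulated Tconv region given to Psmb9. All 4 lists held 6 genes (6.67%, against 7.63%), namely H2-K1, H2-D1, H2-Q6, H2-DMa, Psmc4 and Psmd14. The intervals cover counting error over regions, which are not replicates.

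Closeness to gene ends was counted for the regions at these genes. In stimulated Tconv 14 of 22 were within 1 kb of the end of a gene (63.6%, interval 43.0% to 80.3%), against 39.0% of all regions. In stimulated Treg this was 29 of 56 (51.8%, 39.0% to 64.3%), against 33.0%. The unstimulated shares were 80.0% and 72.2%, against 72.2% and 70.4% of all regions. Within stimulated Treg, 15 of 23 proteasome regions but 1 of 6 class II regions lay there. Regions at these genes were chosen as inside a gene or within 50 kb of it, while all regions were taken at any distance. The shares are therefore not of like sets.

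Regulators of the same pathway that the name rule does not take in were read from a list of 17 genes. Of these 6, 7, 7 and 10 had an entry. The shares were 35.3%, 41.2%, 41.2% and 58.8%, against 12.9%, 13.9%, 17.0% and 25.9% of all genes. Irf2, a repressor and activator of interferon-response promoters, had 18.00, 22.67, 39.39 and 52.37, within 65 bp of the gene in each list. Irf1, which drives interferon-inducible class I and immunoproteasome genes, had 6.86, 7.23, 11.57 and 15.80. Rfxank, a subunit of the RFX complex at class II promoters, had 17.74, 18.22, 9.72 and 11.33. Cd74, the class II invariant chain, was in the Treg lists alone, at 6.64 and 15.31. Pomp and Tapbpl, a proteasome assembly chaperone and a tapasin-like protein, were listed in stimulated Treg alone.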

How the data were processed

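Per the submitters' processing notes, Trim Galore 0.4.1, BWA 0.7.15-r1140 and MACS2 2.1.1.20160309 were used with mm10. Per the file names in the labels, each deposited list holds peaks of pooled replicates outside blacklisted regions, kept by a conservative reproducibility (IDR) criterion. The use of the input was not given in the sources used here. Fold enrichment is the authors' ratio. The −log10 p is the authors' deposited value, and the deposited score equals 10 times it. A deeper library would give a longer list.

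Summits were assigned to genes of RefSeq's GRCm38.p6 table, merged into regions and compared by an overlap of at least 1 bp (Python 3.11.15, pandas 2.3.3, numpy 2.4.6, scipy 1.17.1). The assignment was checked on 400 simulated entries, with 0 disagreements. Genes and lists were chosen with earlier results of these data known. Named genes were every gene with an entry, with values in all lists for B2m, H2-Q4, Nlrc5, Psmb9 and the 6 strongest of each subset. Alternatives varied distance, overlap and threshold. No test was run.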

Additional observations from a re-analysis of the deposited data

How the results depend on the processing

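No paired analysis was possible because each group has 1 pooled list, so no result comes from a test, and leaving out a replicate could not be run for the same reason. Of 84 values under alternative settings, 63 moved by less than their margin and 21 by more. Counting every gene within 50 kb of a summit gave 39, 44, 50 and 67 genes with an entry in unstimulated Tconv, unstimulated Treg, stimulated Tconv and stimulated Treg (43.3%, 48.9%, 55.6% and 74.4%, against 32.6%, 33.6%, 37.7% and 50.6% of all genes). A common −log10 p of 38.1 gave 5 and 9 genes in the unstimulated lists (5.56% and 10.0%, against 5.88% and 6.72%), with class I at 1 and 4 and the proteasome at 3 and 3, and class II at 1 in unstimulated and 3 in stimulated Treg. The upper 50% of each list gave 6 and 9 genes in the unstimulated lists (against 6.99% and 7.55% of all genes) and 18 in stimulated Treg (against 14.4%). Lists of equal length gave 8 genes in stimulated Treg (against 7.41%). The share of stimulated Treg regions without an unstimulated counterpart was 55.6% with equal lengths (all regions 76.1%) and 83.9% when an overlap of 50% was required (81.2%). The share without a Tconv counterpart was 11.1% with equal lengths (30.2%) and 37.5% in the upper 50% (51.4%), and 33.3% for unstimulated Treg in the upper 50% (17.1%). Counting summits within 1 kb with other genes disregarded was chosen after seeing the data and gave 13, 19, 19 and 36 genes. Fewer entries enter every stricter setting. Depth is unknown, so a missing entry is not an absence of binding.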

Other observations

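The motif at the proteasome starts was also frequent at p65 summits of other genes. It was chosen after the data were seen, as the one with the largest difference in percentage points among 13 motifs. Its form was looser than the exact 10 letters first read in the Psma2 promoter. Among all genes with a summit in the 300-base window in unstimulated Tconv, 718 of 1668 (43.0%) held the NRF1-type motif, against 633 of 15818 without a summit. The values were 41.3% and 3.97% in unstimulated Treg, 33.2% and 5.01% in stimulated Tconv, and 23.7% and 4.71% in stimulated Treg. The NF-kB consensus was at 6.47% and 4.65% in unstimulated Tconv, 7.50% and 4.52% in unstimulated Treg, 9.01% and 4.37% in stimulated Tconv, and 6.76% and 4.45% in stimulated Treg. GGGGCGGGG, another motif rich in G and C, was at 28.1% and 14.5% in unstimulated Tconv, and at 751 of 2780 and 2016 of 14706 in stimulated Treg. The exact letters of Psma2 were at 8.03% and 0.487% in unstimulated Tconv and 4.42% and 0.598% in stimulated Treg. The part of base composition in these shares was not tested.

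The core of the interferon-stimulated response element, searched as TTTC, 2 free bases and TTTC, was at 6 of the 77 promoters of the antigen processing and proteasome genes, against 3.48% of all. The 6 were B2m, H2-T22, H2-T23, Psmb3, Psmd4 and Psmd9, and 4 of them had a summit in their 300-base window in at least 1 list. Such a summit was at 39.0% of the 77 promoters, and at 109 of the 608 promoters with this core over all genes. Over all genes the core was at 3.22% of promoters with a summit and 3.54% of those without one.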
